A study of Mus musculus with 2 samples.

Results

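RNA polymerase II (Pol II) covered the mouse Hmga2 gene as 1 continuous domain of 116 kb in cultured mouse embryonic fibroblasts, the connective tissue cells that grow out of dissociated embryos. The domain runs from chr10:119766001 to chr10:119882000 in the mm8 build. It is 1 of 42358 regions in which 500 bp windows stood over background in both libraries, as 2.90% of all tested windows did, and 1 of 176 such regions of at least 20 kb. It was chosen from these same reads, as the widest run of such windows at Hmga2, and the 30 kb to each side were read with it. Its height over background and its width are therefore given as a description with no test.

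Hmga2 encodes a small chromatin architectural protein whose AT-hook motifs bind the minor groove of AT-rich DNA and bend it. The gene is active in embryonic and mesenchymal cells, is silenced in most adult tissues, and its messenger RNA is a well-known target of the let-7 microRNAs. Most of its length is a single very long intron, so a polymerase that starts at the promoter travels far before it reaches the last exon. Pol II often accumulates close to a gene's start, moves through the gene body and continues past the site where the transcript is cut.

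The study made 2 libraries of 1 group. Both came from mouse embryonic fibroblasts in DMEM medium with 10% serum, with no treatment, genotype, strain or passage named. The antibody, 8WG16, recognises the repetitive tail of the largest Pol II subunit and prefers it unphosphorylated. After repeated reads, those sharing start and strand, were reduced to 1, library 1 held 17548967 nuclear reads and library 2 held 10941174. Nothing in the labels says whether the cells came from separate embryos or cultures, so the spread between libraries may be technical. The gel slice reached 350 bp in library 1 and 300 bp in library 2, and this cannot be told apart from any other difference between them. No input or control library was used here, and the fibroblast label was not checked against marker genes because no annotation of mm8 was at hand. For the same reason the exons of Hmga2 were not placed on the reads, and the domain carries the gene's name from its position alone.

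The RefSeq table places Hmga2 on the minus strand of chromosome 10, so the gene starts at the high-coordinate end of the domain. The 250 bases before that start are shown because the start peak and the density behind it are described from there on. They lie at chr10:120476470-120476719 of GRCm38.p6, a different build from that of the reads, and are written on the gene strand from 5′ to 3′ with each run of the motif TCTCTC in capitals.
Hmga2 promoter: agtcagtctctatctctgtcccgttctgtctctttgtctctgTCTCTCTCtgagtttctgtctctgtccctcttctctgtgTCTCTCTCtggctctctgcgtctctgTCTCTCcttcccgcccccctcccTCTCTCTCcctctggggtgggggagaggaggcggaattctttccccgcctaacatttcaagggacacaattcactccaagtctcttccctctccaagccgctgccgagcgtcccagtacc
This stretch is rich in pyrimidines. C or T made up 70.8% of its bases, against a median of 50% over 32851 promoters of the same length, and 0.414% of those promoters reached that share. TCTCTC began at 7 positions on the gene strand, counting overlapping ones, and at none on the other. At least 1 copy on either strand was present in 20.2% of all promoters, and 7 or more on the gene strand in 0.0822%. The longest unbroken run of C and T had 23 bases, against a median of 9, and lay from 130 to 108 bases before the start. TATAAA and CCAAT were not found on either strand, where 12.4% and 33.8% of promoters hold them. GGGCGG was found 1 time, on the other strand, and 32.7% of promoters hold it. These matches describe letters in this window and are not binding sites. The motifs were chosen after the data were seen, so their shares among promoters are a description with no test.

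The level of Pol II over the domain was high in both libraries. Library 1 had 10178 reads in it and library 2 had 12426, which is 580 and 1136 reads per 1000000 collapsed nuclear reads (RPM). The density was 5.0 RPM per kb in library 1 (95% exact Poisson interval 4.90 to 5.10) and 9.79 in library 2 (9.62 to 9.96), with a mean of 7.40 ± 3.39 (SD, n = 2). These intervals cover counting error only. Per collapsed read, library 2 was 1.96-fold higher (interval 1.91 to 2.01). The Pol II summits of the genome, defined below and including 23 in this domain, had a median ratio of 1.60. Scaled by the reads of windows over background in both libraries, the ratio of library 2 to library 1 was 1.19 (1.16 to 1.22), and with a trimmed mean of window ratios it was 0.961 (0.937 to 0.987). Which library was higher over Hmga2 thus depends on the scaling. Relative to each library's own background of 0.389 and 0.236 RPM per kb, the domain stood 12.9-fold higher in library 1 and 41.5-fold higher in library 2. With background taken only from windows at least 10 kb from any call these were 15.7 and 62.5-fold.

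Pol II reads filled the domain with hardly a break, which its choice as a run of windows over background largely fixes. Of the 232 windows in the domain, 231 in library 1 and 232 in library 2 were over background, where 3.41% and 9.02% of all tested windows were. No result is read from that contrast. The counts per window had a minimum of 7, a median of 42 and a maximum of 100 reads in library 1. In library 2 they had a minimum of 10, a median of 52 and a maximum of 121. The median window thus held 2.39 RPM in library 1 and 4.75 in library 2. At the high-coordinate edge, the last window inside held 26 and 13 reads and the first window outside held 9 and 6, where 12 and 7 were the smallest counts called. At the low edge the first window inside held 12 and 11 reads and the first outside held 7 and 6. Reads fell evenly on the strands, with 50.0% on the minus strand in library 1 and 49.5% in library 2.

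**Figure D1:**
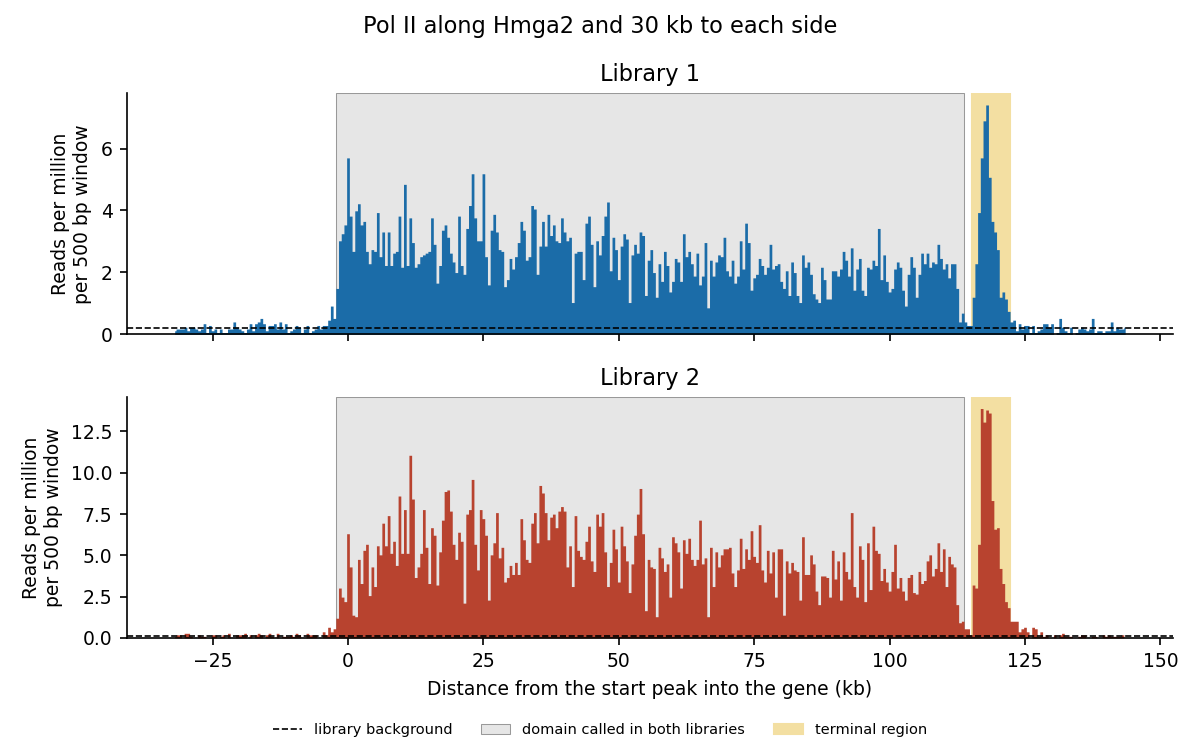
RPM in 500 bp windows (vertical axes, scaled separately per library) against distance in kb from the start peak, for the Hmga2 domain and 30 kb to each side. Bars are single windows and the dashed line is the library background. The domain is filled from end to end, and the highest windows, at 7.41 and 13.9 RPM, lie in the terminal region beyond its far end.

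The highest window near the start, called the start peak here, passed a counting test against the gene behind it in library 1 and not in library 2. This window, chr10:119879501-119880000, held 100 reads in library 1 and 69 in library 2. These are 5.70 and 6.31 RPM, a mean of 6.0 ± 0.43 (SD, n = 2). On the scale of reads in windows over background in both, library 2 was at 0.674 of library 1 here (0.489 to 0.925). Within the window, the 100 bp at its gene-side edge held 35 reads in library 1 and 29 in library 2, the most of any 100 bp within 5 kb of the peak in both. Against the 18 windows from 1.5 to 10 kb into the gene, which averaged 53.2 reads in library 1 and 54.6 in library 2, the start peak was 1.88-fold and 1.26-fold higher. The 18 windows on the upstream side averaged 8.72 and 4.67 reads, and most of them lie outside the domain. The local test used elsewhere, an exact one-sided Poisson test against the mean of both sides, gave folds of 3.23 and 2.33, but the edge of the domain largely fixes that result and no p is read from it. Tested against the fuller side alone, with adjustment by Benjamini and Hochberg over all windows of the genome, the start peak passed in library 1 (adjusted p = 1.8e-06, exact Poisson test) and did not pass in library 2 (adjusted p = 1). Genome-wide 0.611% of windows passed this stricter test in library 1, 0.799% in library 2 and 0.423% in both. This stricter test was added after the data were seen. The start peak was itself chosen as the highest window near the start. Counts over the domain had a variance of 5.06 and 7.34 times the mean, so the p in library 1 may be too small.

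The start peak stood in the upper part of the genome's summits. A summit here is a window over background in both libraries whose mean reaches 2 RPM and which is the highest within 2 kb. By mean RPM the Hmga2 start ranked 1786 of 12010 summits, at the 85.1 percentile. Its RPM in library 2 over that in library 1 was 1.11, at the 25.1 percentile of the summits, whose median ratio was 1.60 and whose central 90% ran from 0.685 to 3.83. The balance between the libraries at the start thus lies well inside the range of summits elsewhere.

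From 1 to 5 kb to the gene side of the start peak there were 452 reads in library 1, against 179 on the other side. Library 2 had 312 reads against 96. The gene side was 2.53-fold higher in library 1 (95% exact interval 2.12 to 3.02) and 3.25-fold higher in library 2 (2.58 to 4.13). Since the edge of the domain lies inside the upstream flank, 2.25 kb from the centre of the peak, the choice of the domain helped to fix this direction and no test is read from it. With flanks of 1 to 3 kb the gene side was higher by 0.80 and 0.57 on the log2 scale, against 1.34 and 1.70 for 1 to 5 kb, so the size of the excess depends on the distance. Genome-wide the flanks were unequal at 46.8% of summits in library 1, at 58.7% in library 2 and to the same side in both at 40.2%. Beyond that edge the density dropped to 0.650 and 0.530 RPM per kb over the next 5 kb, 1.67-fold and 2.25-fold over background. In the later 5 kb steps out to 30 kb it lay from 0.697 to 1.64 times background over both libraries.

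**Figure D2:**
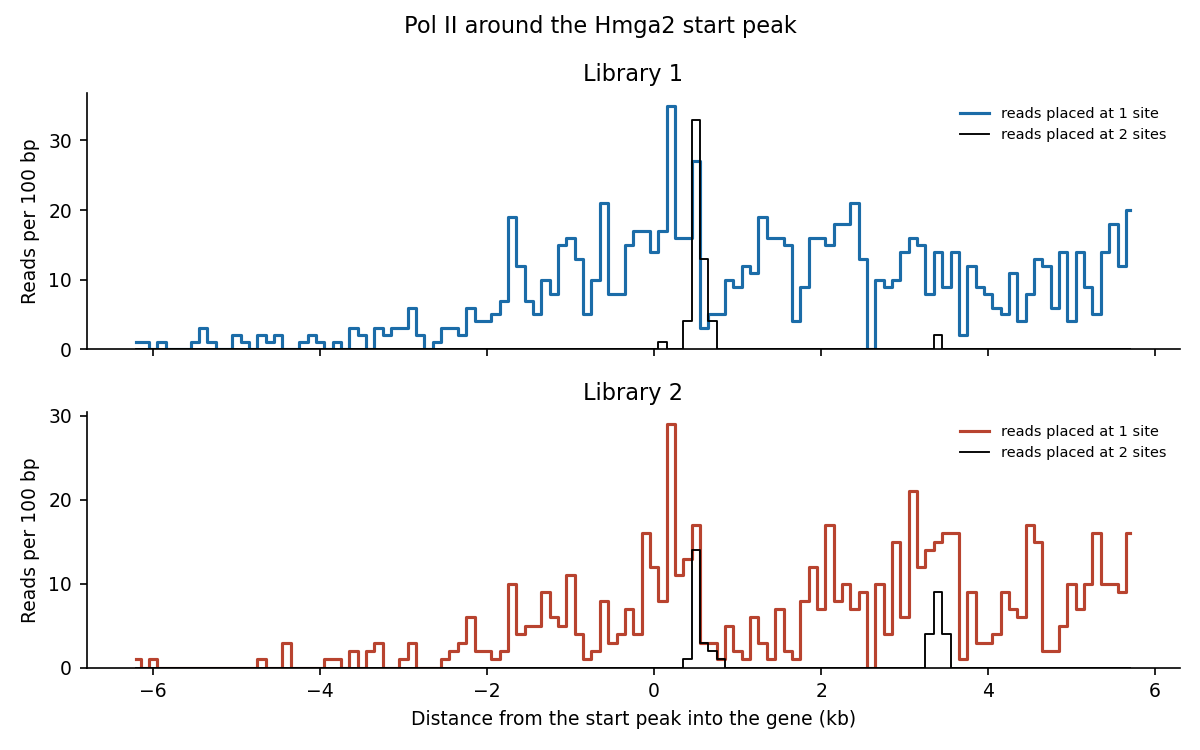
Reads per 100 bp (vertical axes) against distance in kb from the centre of the start peak, positive into the gene, for reads placed at 1 site (coloured) and reads placed at 2 sites (black). The highest bin of 1-site reads holds 35 reads in library 1 and 29 in library 2, and 2-site reads form a narrow block just inside the gene.

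Around the start the libraries differed in shape. In the 5 kb at the start end of the domain, library 1 had 618 reads and library 2 had 330, or 7.04 and 6.03 RPM per kb. These 5 kb run from 2.25 kb before the centre of the start peak to 2.75 kb into the gene. They thus include the upstream edge of the domain, where counts fall, and are not gene body alone. The rest of the domain had 4.91 RPM per kb in library 1 and 9.96 in library 2. In library 1 this start stretch, edge included, was the denser of the pair, at 1.44 times the rest (interval 1.32 to 1.56). In library 2 it was the sparser, at 0.606 times the rest (0.541 to 0.676). The direction was thus opposite in the libraries, and neither interval reaches 1. These intervals cover counting error only. Window counts in the domain had a variance of 5.06 and 7.34 times the mean, so the intervals may be too narrow. As a ratio of library 2 to library 1, the start 5 kb gave 0.856 (0.747 to 0.981) and the rest 2.03 (1.98 to 2.08). The contrast between start and rest does not depend on how the libraries are scaled. These bounds were chosen after the profile had been seen.

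Single windows show where the libraries differed. All 232 windows of the domain were compared between the libraries by an exact two-sided conditional binomial test, scaled by the read totals of windows over background in both and adjusted over 410963 windows. Genome-wide 1.12% of windows differed, 0.550% higher in library 1 and 0.567% higher in library 2. In the domain 4 were higher in library 1 and 3 in library 2. Of the 4, 3 lay next to the start peak. The window 1.5 kb into the gene held 70 reads in library 1 and 14 in library 2, a scaled ratio of 0.195 (0.102 to 0.350, adjusted p = 2.4e-07 by the exact test). The window 1 kb into the gene held 47 and 15 reads, and the one 0.5 kb before the peak held 62 and 24. Between them the start window itself, with 100 and 69 reads, did not pass. The 4th, 48 kb into the gene, held 75 and 34.

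The 3 windows higher in library 2 lay singly in the gene body. They were 35.5 kb into the gene with 50 and 101 reads, 65 kb in with 28 and 78, and 74.5 kb in with 25 and 71. No run of windows there differed. The test sets 1 library against 1 other and covers counting error only, and how many windows it names rests on the scaling. Scaled to all reads, 1 window was higher in library 1 and 102 in library 2, and a trimmed mean of ratios gave 6 and 0. The window 1.5 kb into the gene is the only one to pass at an adjusted p of 0.0001.

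**Figure D3:**
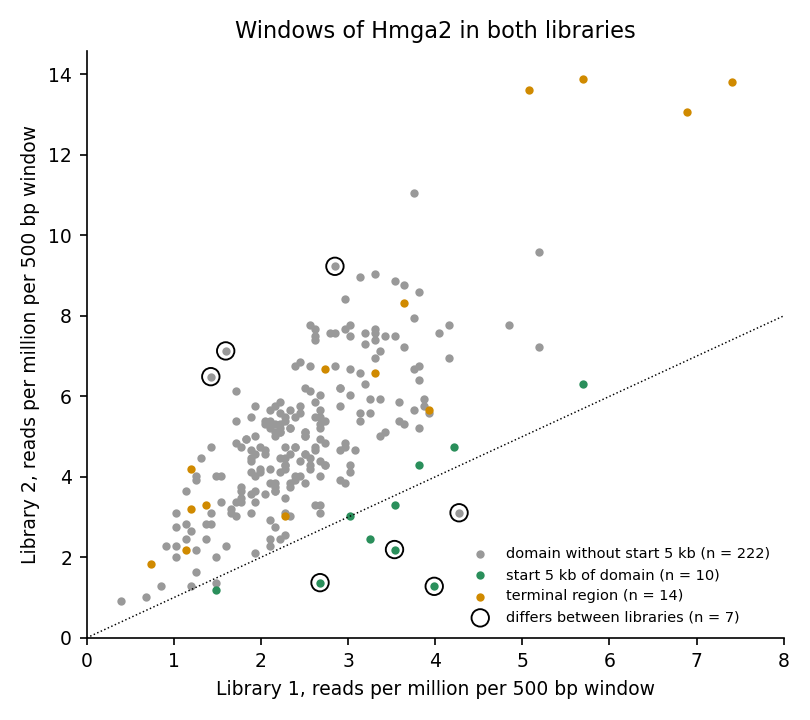
RPM per 500 bp window in library 1 (horizontal) against library 2 (vertical), 1 point per window, with equality dotted. Windows of the start 5 kb lie near or below equality, most others lie above it, and the 7 ringed windows differ between the libraries by the exact test.

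Over the long body of the gene, density was higher on the start side than on the far side, without an even slope. The 58 kb on the start side held 5.90 RPM per kb in library 1 and 11.2 in library 2, and the 58 kb on the far side held 4.10 and 8.42. The ratio of these stretches was 1.44 (1.38 to 1.5) in library 1 and 1.33 (1.28 to 1.37) in library 2, a mean of 1.38 ± 0.08 (SD, n = 2). Both libraries therefore had more reads toward the start, by a similar factor. In 10 kb segments, library 1 stayed between 5.60 and 6.45 RPM per kb over the first 5 segments and between 3.73 and 5.06 over the other 6. Library 2 held 8.16 in the first segment, from 11.6 to 12.7 in the next 4, and from 7.38 to 9.80 in the other 6. The first segment exceeded the last full one 1.59-fold in library 1 (1.44 to 1.74) but only 1.11-fold in library 2 (1.0 to 1.22). Library 1 held 6.45 in the first segment, 5.60 in the second and 6.40 in the third, with no steady fall over the first 5. Library 2 rose after the first. In both libraries the segments from 7.75 to 47.75 kb into the gene were each denser than every later one.

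From the second segment on, the ratio of library 2 to library 1 stayed between 1.82 and 2.17, while the first segment gave 1.27. Across the 232 windows the RPM values of the libraries gave a Pearson r of 0.61 and, by ranks, a Spearman rho of 0.61. Without the 10 windows of the start 5 kb these were 0.70 and 0.69. The points are neighbouring windows of 1 gene that share mappability and base composition, so the correlations only describe how alike the profiles are.

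**Figure D4:**
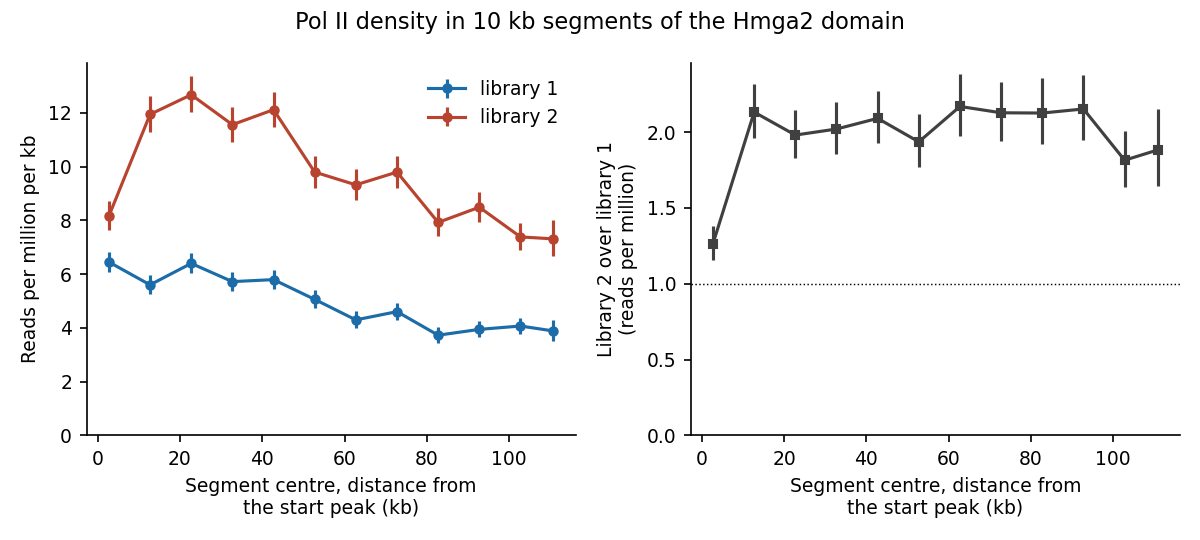
Left, RPM per kb in 10 kb segments of the domain against the distance of the segment centre from the start peak, with 95% exact Poisson intervals. Right, the ratio of library 2 to library 1 with its 95% exact interval. Density is lower past about 50 kb in both libraries, and the first segment, at 1.27, has the lowest ratio.

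Some windows inside the gene rose above their surroundings, mostly in 1 library at a time. The local test against both sides passed for 12 of the 232 windows in library 1 (5.17%), where 0.783% of all windows pass, and for 11 in library 2 (4.74%), where 1.12% do. It passed in both for 2 (0.862%, against 0.572% genome-wide), the start peak and an internal peak. Against the fuller side 5 windows passed in library 1, 6 in library 2 and 1 in both, the internal peak. These shares do not compare like with like. Background windows averaged 3.41 and 1.29 reads, against medians of 42 and 52 in the domain, and a rise of equal fold passes less easily at low counts. The internal peak, chr10:119856501-119857000, lies 23 kb into the gene. It held 91 reads in library 1 and 105 in library 2, which is 5.19 and 9.60 RPM (7.39 ± 3.12, SD, n = 2). It stood 1.88-fold and 1.74-fold over its surroundings (adjusted p = 6.0e-06 and 1.9e-05, exact Poisson test), and 1.83-fold and 1.65-fold over the fuller side. Counts over the domain varied by more than counting error, with a variance of 5.06 and 7.34 times the mean, so these p may be too small. The internal peak is thus a modest rise on a full gene. A window 11.5 kb into the gene was as high by mean, at 7.41 RPM with 66 and 121 reads, but did not pass in both libraries. The internal peak was taller than the start peak in library 2 and lower in library 1, where the start peak had 100 reads. RefSeq lists 5 genes inside Hmga2 in GRCm38, the lncRNA genes 1700006J14Rik, Gm40783, 9230105E05Rik and Gm51785 and the microRNA gene Mir763. Reads of this kind carry no strand of transcription, so Pol II on these genes cannot be told apart from Pol II on Hmga2, and the peak was assigned to none.

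A denser accumulation followed the domain just past its low-coordinate edge. A separate region called in both libraries, chr10:119757501-119764500, lies 1.5 kb beyond the domain and is called the terminal region here. It held 818 reads in library 1 and 1087 in library 2 over 7 kb, or 6.66 and 14.2 RPM per kb (10.4 ± 5.33, SD, n = 2). That is 1.33 times the density of the domain in library 1 (1.24 to 1.43) and 1.45 times in library 2 (1.36 to 1.54). Against the last 10 kb of the domain it was 1.63 and 1.93 times as dense. Those 10 kb include the 2 lowest windows of the domain, where reads placed at 2 sites were not counted. The 5 kb from 119767001, without those windows, held 4.44 and 8.39 RPM per kb. Both libraries were thus denser in the terminal region than in the last part of the domain.

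The highest window of the terminal region by mean RPM, chr10:119761501-119762000, lies 118 kb from the start peak. In library 2 the window from 119762501 was as high, with 152 reads. The former held 130 reads in library 1 and 151 in library 2, 7.41 and 13.8 RPM (10.6 ± 4.52, SD, n = 2). It stood 5.94-fold and 5.62-fold over its surroundings, and 4.21-fold and 4.36-fold over the fuller side, where it passed in both libraries. The far side averaged 12.9 and 19.1 reads per window and reaches past the edge of the region. The fuller side averaged 30.9 and 34.7 and spans the dip described below. Position thus helps to fix these folds, and no p is read from them. This window was 1.30 times the start window in library 1 and 2.19 times in library 2. By reads placed at 1 site, the tallest Pol II peak of the locus was thus at the far end in both. In library 1 this order rests on 130 against 100 reads, and no interval was computed for it. The window just inside the start peak held 67 reads placed at 1 site in library 1, and 54 placed at 2 sites that were not counted. In library 2 these were 47 and 20. The window from 119761501 ranked 294 of 12010 summits, against 1786 for the start. Of the 14 windows of the region, 7 passed the local test against both sides in both libraries and 4 that against the fuller side. The same limits hold for these counts. None of the 14 differed between the libraries.

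The rise and fall of this accumulation were gradual. Around its centre, 4 neighbouring windows held from 89 to 130 reads in library 1 and from 143 to 152 in library 2. Toward lower coordinates the counts fell to 13 and 20 reads in the last window called in both, 122 kb from the start peak. Library 2 alone stayed over background for 1.5 kb more. Beyond it, the third 5 kb step past the domain had 0.422 RPM per kb in library 1, 1.08-fold over background, and 0.731 in library 2, 3.10-fold over it. In the steps after that the density was from 0.542 to 1.08 times background over both libraries. Pol II called in both libraries thus reached 8.5 kb past the low edge of the domain. No annotation of mm8 was used, so where the transcript is cut within this stretch is not stated.

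**Figure D5:**
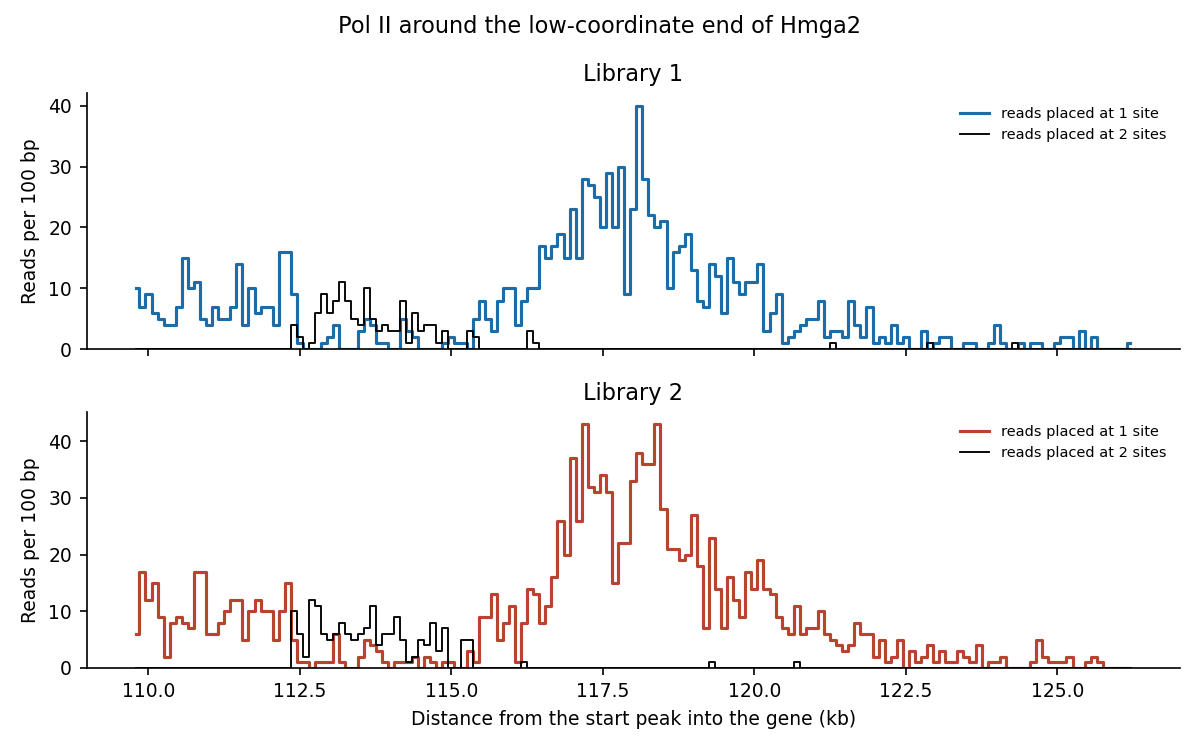
Reads per 100 bp (vertical axes) against distance in kb from the start peak at the far end of the gene, for reads placed at 1 site (coloured) and at 2 sites (black). Where 1-site reads dip, between about 112 and 115 kb, 2-site reads are present, and the accumulation beyond reaches 40 reads per 100 bp in library 1 and 43 in library 2.

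The dip between the domain and the terminal region coincided with reads that fit 2 places in the genome. The 1.5 kb between them held 17 reads in library 1 and 14 in library 2 among reads placed at 1 site, 0.646 and 0.853 RPM per kb. The 2 lowest windows of the whole domain adjoin it. The first window inside the domain held 12 and 11 such reads, but also 32 and 35 starts of reads placed at 2 sites. The window after it, from 119766501, held 7 and 10, with 40 and 36 starts of the other kind. With 2-site reads added, the stretch chr10:119764001-119767500 went from 1.35 to 3.42 RPM per kb in library 1 and from 2.40 to 6.87 in library 2. The domain and the terminal region then formed 1 region of 124.5 kb. The third lowest window, from 119813001, held 15 and 14 reads and lies over 367 bp in which no read of either library began. It had 1 start of a 2-site read in library 1 and 0 in library 2.

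The 2-site reads at Hmga2 were not spread along it. They formed 5 clusters, and 3 of these had starts that recur within 1 stretch of 3.499 kb on chromosome 1, chr1:178672242-178675740. A cluster 0.5 kb inside the start peak, from 119879016 to 119879325, had 70 distinct starts over both libraries, and 67 of them recurred on chromosome 1 at 1 fixed offset. The starts common to both places were 91.8% of all starts at either, against 35.7% for the next best match in the genome. At the far end, 245 of 289 starts (84.8%) recurred at 1 of 4 offsets. Its best single offset there matched 107 starts, 22.2% of those at either place, and the next best place in the genome gave 7.17%. Dense tracts of 2-site reads elsewhere matched up to 147 of these starts at 1 offset, out of 2162 in the tract. A small cluster from 119876315 to 119876388 had 19 starts, of which 19 recurred, but its share of 37.3% was close to the 34.3% of the next best match. On chromosome 10 the segments at the start and at the far end are 111.657 kb apart. On chromosome 1 they follow each other in the same order from start to end, in the opposite orientation, within those 3.499 kb. The RefSeq table of GRCm38 lists 1 transcribed pseudogene of this gene, Hmga2-ps1, on chromosome 1. Coordinates were not converted between builds, so whether it is this stretch was not tested. Reads placed only on that stretch of chromosome 1 numbered 9 in library 1 and 11 in library 2. The other clusters, at 119788501 with 12 starts and at 119849501 with 86, had no partner there.

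Among the 176 regions of at least 20 kb, the Hmga2 domain was the second widest. By mean density it ranked 27, at 7.40 RPM per kb against a median of 4.27 and a range of 2.14 to 79.3. The others among the 5 widest, on chromosomes 2, 12, 6 and 16, had means of 5.48, 6.52, 7.59 and 5.53 RPM per kb. Hmga2 was the densest of these in library 1, at 5.0 against 2.98 to 3.67, and had 9.79 against 7.80 to 11.6 in library 2. The widths chose these regions, and the densities are set side by side with no test.

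Density within the Hmga2 domain, as called from 1-site reads, was even compared with most of the other wide regions. The domain ends at the dip in 1-site reads, so the terminal region is left out of the values inside it. With 2-site reads added the domain and the terminal region formed 1 region of 124.5 kb, whose evenness was not computed. Its highest window was 2.38 times its median window in library 1 (rank 122 of 176) and 2.33 times in library 2 (rank 113). The SD of its windows over their mean was 0.340 and 0.370, against medians of 0.485 and 0.449. In the other 4 of the 5 widest regions it ran from 0.373 to 0.474 in library 1 and from 0.328 to 0.450 in library 2. This measure includes counting error, which weighs less where windows hold more reads. The 5 highest windows of the Hmga2 domain held 4.34% and 4.22% of its reads, a share that falls with width. The neighbouring terminal region was tall by the same measure. The highest window within 10 kb outside the domain was 3.10 and 2.92 times its median window, rank 17 and 18 of 176, where the medians were 1.40 and 1.42. For highest windows inside the wide regions the medians were 3.01 and 2.67. The evenness thus depends on where the domain was cut. In 18 of the 176 regions (10.2%) a window outside was taller than any inside in both libraries, so Hmga2 shares this with others.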

How the data were processed

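Per the file headers, the authors used Bowtie with mm8 as reference, keeping reads that fit at most 2 sites, and deposited signed read offsets by chromosome, with 1-site and 2-site reads apart. No Bowtie version was found in the sources used here. The offsets were read as left-most bases of 36-base reads. 1-site nuclear reads were collapsed to 1 per start and strand (10.1% and 4.54% of alignments were repeats), 5′ ends shifted 60 bp and counted in 500 bp windows. Background was the mean after 3 rounds of removing called windows (3.41 and 1.29 reads per window). Windows were called by a one-sided exact Poisson test with Benjamini-Hochberg adjustment at 0.01, and runs joined over gaps of at most 1 window. Local background was the mean of 20 windows each side without the 2 nearest. The tests were fitted over the whole genome and tested on simulated data. A cluster of 2-site reads had at least 10 distinct starts per window, and a partner offset at least 40 shared starts or 90% of a cluster. The members, lists and bounds were chosen with earlier results of these data known. Windows were named by role: the start peak, local peaks, the 3 lowest and those that differ between libraries, of which all 7 are given in place of the planned 5. Added after seeing the data were the local test against the fuller side, the start 5 kb, the terminal region, the search for partners of 2-site reads and the promoter motifs. RefSeq tables gave the promoter and names only. The scripts ran under Python 3.11.15 with NumPy 2.4.6, with SciPy 1.17.1 for tests and with matplotlib 3.10.9 for figures.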

Additional observations from a re-analysis of the deposited data

Results flagged for a closer look

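Reads placed at 2 sites entered none of the comparisons, yet 603 distinct starts of such reads lie in the Hmga2 domain and its flanks of 30 kb over both libraries, 307 in library 1 and 320 in library 2. They drew attention because a signal in reads left out of the counts coincides with the lowest windows of the domain and with a block next to the start peak. With these reads added, the window just inside the start peak rose from 7.64 to 13.8 RPM per kb in library 1 and from 8.59 to 12.2 in library 2, and the local peak at the start moved to that window.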

How the results depend on the processing

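The 3 local peaks were found with all reads kept, a stricter threshold, a narrower or wider local background and 2-site reads added, except that 2-site reads moved the start peak by 1 window. For the start peak and the peak of the terminal region, the edges of the called regions help to fix this outcome. With a local background of the fuller side, chosen after seeing the data, 5 windows passed in both libraries in place of 9, 1 in place of 2 in the domain, and the start peak was lost in library 2. As a density the start peak was 12.0 RPM per kb, and 11.0 with a shift of 100 bp, 14.2 in 250 bp windows and 10.1 in 1000 bp windows. The log2 ratio of its flanks was 1.34 in library 1 and 1.70 in library 2. With flanks of 1 to 3 kb these were 0.80 and 0.57, and no test is read from either. Windows higher in library 1 numbered 4, and 1 with scaling to all reads or at a threshold of 0.0001. Those higher in library 2 numbered 3, and 102 with scaling to all reads, 0 with a trimmed mean and 0 at the stricter threshold. In the start 5 kb, 3 were higher in library 1, and 1, 5 and 1 under those settings. These scalings moved log2 ratios by 0.72 and -0.31 from the one used. The cause was not tested. Of the wide regions, 14.8% were denser than Hmga2, 4.49% of 534 with gaps of up to 4 windows joined and 34.5% of 58 with a negative binomial background. Leaving out 1 library gave 14.2 to 17.0%, domain densities of 5.0 to 9.79 RPM per kb, 12.9 to 41.5-fold over background, a start peak of 11.4 to 12.6 RPM per kb, and ratios of 1.33 to 1.44 for the start-side over the far-side 58 kb, 1.11 to 1.59 for first over last segment, 0.606 to 1.44 for the start 5 kb over the rest and 1.33 to 1.45 for the terminal region over the domain. Leaving out 1 of 2 libraries moves a mean by less than the SD by construction, so these ranges show no stability, and for the start 5 kb over the rest the libraries took opposite directions. For the terminal region and the wide regions this was also added after seeing the data. Under the other alternatives 45 values were labelled the same, 15 moved and 1 was weaker. Levels and ratios were the same within the SD of the 2 libraries, counts within a set fold, and the extent within 1 window. Flanks were the same if they kept their side and passed the threshold. That SD can be wide: 27.2-fold and 39.1-fold over background were labelled the same, with an SD of 20.2. The 45 are thus no measure of stability. With 1 group of 2 libraries, the precision of every mean is limited by that number, and counting intervals leave out all other error. No paired analysis was possible because the study has 1 group.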
